A study of Mus musculus with 25 samples.

Results

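The interferon response genes described here are 33 genes that cells switch on, or switch on further, when they meet interferon. They were taken by symbol from the 24015 gene symbols in each of the tumour and the cell expression tables, and all 33 were listed in both. The RNA libraries came from 4 resistant and 4 sensitive mouse basal cell carcinomas and, in 9 libraries, from ASZ001, a line of mouse basal cell carcinoma labelled as resistant. All tumours grew in mice of strain C57BL6 with the alleles Ptch+/- and p53 fl/fl and the K14 Cre-ER transgene, an inducible Cre under the keratin 14 promoter of basal keratinocytes, and a Smo inhibitor was given to all of these mice by oral gavage. Of the ASZ001 libraries 3 each were treated with CCG-1423, which blocks transcription by the SRF coactivators MRTF, with vismodegib, a Smo inhibitor, or with vehicle. The sources used here give no ages of the mice, no doses, no treatment times and no origin of the replicates. P-values therefore speak only of the spread between the samples at hand, and that spread may be technical.

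Interferons are signalling proteins that cells release when sensors of foreign or misplaced RNA and DNA fire. Type I interferons bind a receptor whose kinases Jak1 and Tyk2 activate transcription factors, Stat2 among them, and Stat2 joins Irf9 in a complex that binds interferon-stimulated response elements in promoters. Interferon gamma acts mainly through another promoter element, the gamma-activated site. The induced proteins include the sensors and transcription factors of the pathway itself, which feed it forward, and effectors that block viral entry, RNA and protein synthesis or budding. In skin the keratinocytes as well as infiltrating immune cells can carry this response.

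RefSeq promoter windows from 250 bases before to 50 bases after a gene's start were available for 27 of the 33 members, in the build GRCm38.p6. The core of the interferon-stimulated response element was searched on both strands as 2 copies of GAAA with any 2 bases between them, and 14 of the 27 members held it, against 3.99% of 27025 genes with a window. The core of the gamma-activated site, TTCNNNGAA, which reads the same on both strands, was found in 8 of the 27 members and in 9.55% of all genes. Matches were counted with overlap, and Oas1a, Ifitm3, Bst2 and Eif2ak2 held both cores. A match is a run of letters and not a shown binding site. Cores differed within the groups described below. Irf7 and Irf9 held neither core, Stat2 held only the response element core, and Ifit2 and Ifitm1 lacked that core. The stretches upstream of the start of 4 members are printed 5′ to 3′. They are examples from the ISG15 system, the IFIT effectors, the membrane proteins and the transcription factors. Capitals mark response element cores in the first 3 and the gamma-activated core in Irf1. The first 3 lie at chr4:156200819-156200938 on the minus strand (Isg15), chr19:34640769-34640888 on the plus strand (Ifit1) and chr8:71537473-71537622 on the minus strand (Bst2), and the Irf1 stretch at chr11:53769894-53770013 on the plus strand.
Isg15: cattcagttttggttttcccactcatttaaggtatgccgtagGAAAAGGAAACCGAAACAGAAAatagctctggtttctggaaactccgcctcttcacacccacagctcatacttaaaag
Ifit1: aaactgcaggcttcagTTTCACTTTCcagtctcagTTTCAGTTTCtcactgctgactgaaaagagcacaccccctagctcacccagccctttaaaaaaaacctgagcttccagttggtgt
Bst2: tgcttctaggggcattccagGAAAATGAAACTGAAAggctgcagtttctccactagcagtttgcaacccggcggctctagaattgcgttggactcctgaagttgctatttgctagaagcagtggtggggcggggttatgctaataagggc
Irf1: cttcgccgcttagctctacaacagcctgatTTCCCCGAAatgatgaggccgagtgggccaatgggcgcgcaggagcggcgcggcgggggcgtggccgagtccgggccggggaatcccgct
In Isg15, 3 overlapping cores make 1 run, and in Bst2, 2 overlapping cores do. Ifit1 has 2 separate cores read on the opposite strand.

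Reads at genes numbered 17537094 to 20014426 in resistant tumours and 8111252 to 14161398 in sensitive tumours. They numbered 32024887 to 41040633 with CCG-1423, 30455530 to 35561668 with vismodegib and 32192090 to 44017757 with vehicle. Values are normalized read counts, each library's reads divided by 1 factor, and levels are not compared between genes because transcript lengths were not used. All 9 basal keratinocyte markers were detected in every group. Sensitive tumour 4 stood apart from its group. Gli1, a target of the Hedgehog pathway that drives this tumour type, had 2096, 1456, 3541 and 2428 normalized counts in resistant tumours, against 532, 544, 649 and 1976 in sensitive tumours. Whether the label of sensitive tumour 4 is right could not be checked, and the tumour calls below depend on leaving it out. Reads of the Y-linked genes Kdm5d, Ddx3y, Eif2s3y and Uty were limited to the first 3 sensitive tumours among the 8, so member results in tumours are given with and without sensitive tumour 4. Without it sex and group cannot be told apart.

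In the 8 tumours the members lay higher in most resistant libraries, but 1 library in each group held the highest values and no member passed the test. The mean log2 level of the members was 8.84, 7.64, 8.30 and 7.68 in resistant tumours 1 to 4, against 7.25, 6.98, 6.94 and 8.26 in sensitive tumours 1 to 4. Sensitive tumour 4 thus lay among the resistant tumours and above resistant tumours 2 and 4, while the mean over all genes tested stayed near 8 in every library. Limma on log2(normalized count + 1), with Benjamini-Hochberg adjustment over all genes and a threshold of 0.05, called 0 of 33 members, against 0.113% of the 15076 genes tested (0.0332% higher and 0.0796% lower, and 0.0332% higher by at least 2-fold). Without adjustment 10 of 33 members had a limma p below 0.05, as did 3789 of the 15076 genes tested. With edgeR 0 members and 0 of all genes were called. DESeq2 called 3 of 33 members, namely Bst2, Ifitm3 and Lgals3bp, and 1638 of the 15076 genes. The log2 fold change was above 0 for 28 of 33 members and for 52.0% of all genes, with a median of 0.85 for the members and 0.03 for all genes. In bulk tissue fewer cells of a type and less RNA per cell cannot be told apart.

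**Figure D1:**
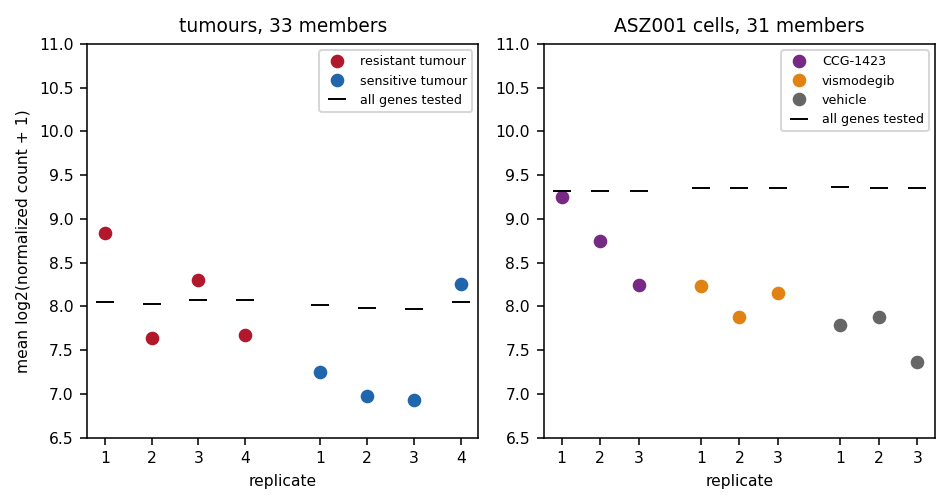
Mean log2(normalized count + 1) of the members in each library (coloured points) and of all genes tested (black dashes), by replicate, for tumours and for ASZ001 cells. Resistant tumour 1, at 8.84, is the highest tumour library and sensitive tumour 4, at 8.26, lies among the resistant tumours, while the CCG-1423 libraries, at 8.24 to 9.25, lie above the vehicle libraries, at 7.36 to 7.88.

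Of the members only Bst2 and Lgals3bp had every resistant tumour above every sensitive one, a separation also seen in 3.90% of all genes. Bst2, called tetherin, holds budding virus particles at the cell surface. It had 369.9, 183, 192 and 167 normalized counts in resistant tumours 1 to 4, against 39.1, 33.9, 38.1 and 153 in sensitive tumours 1 to 4. Sensitive tumour 4 came close to the resistant group and the other sensitive tumours lay far below it. Its log2 fold change was 2.01 ± 0.50 (SE; limma adjusted p = 0.138). Lgals3bp, a secreted glycoprotein that binds galectins, had 2495, 1826, 1618 and 1704 normalized counts in resistant tumours, against 558, 634, 798 and 1364 in sensitive tumours. The groups were close only through sensitive tumour 4, and the log2 fold change was 1.26 ± 0.28 (adjusted p = 0.127).

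Without sensitive tumour 4, 15 of 33 members were higher and 1 was lower in the resistant tumours. Over all 15479 genes tested in that fit 40.0% passed, 20.6% higher and 19.4% lower, so calls were common and the members' share in the higher direction was 45.5%. Of the members 14 passed at 2-fold or more, which 12.3% of all genes did, and 15 had every resistant tumour above every sensitive one, which 24.3% of all genes did. For 1 member, Ifi35, every resistant tumour lay below, as for 23.3% of all genes. The median log2 fold change was 1.19 for the members and 0.02 for all genes. Sensitive tumour 4 lay above all other sensitive tumours for 28 of 33 members and was the highest of its group for 41.6% of all genes tested. It lay within the range of the resistant tumours for 28 of 33 members, and the share of all genes there was not counted. The members' range in resistant tumours was wide, with a median SD of 0.62 on the log2 scale against 0.33 for all genes.

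**Figure D2:**
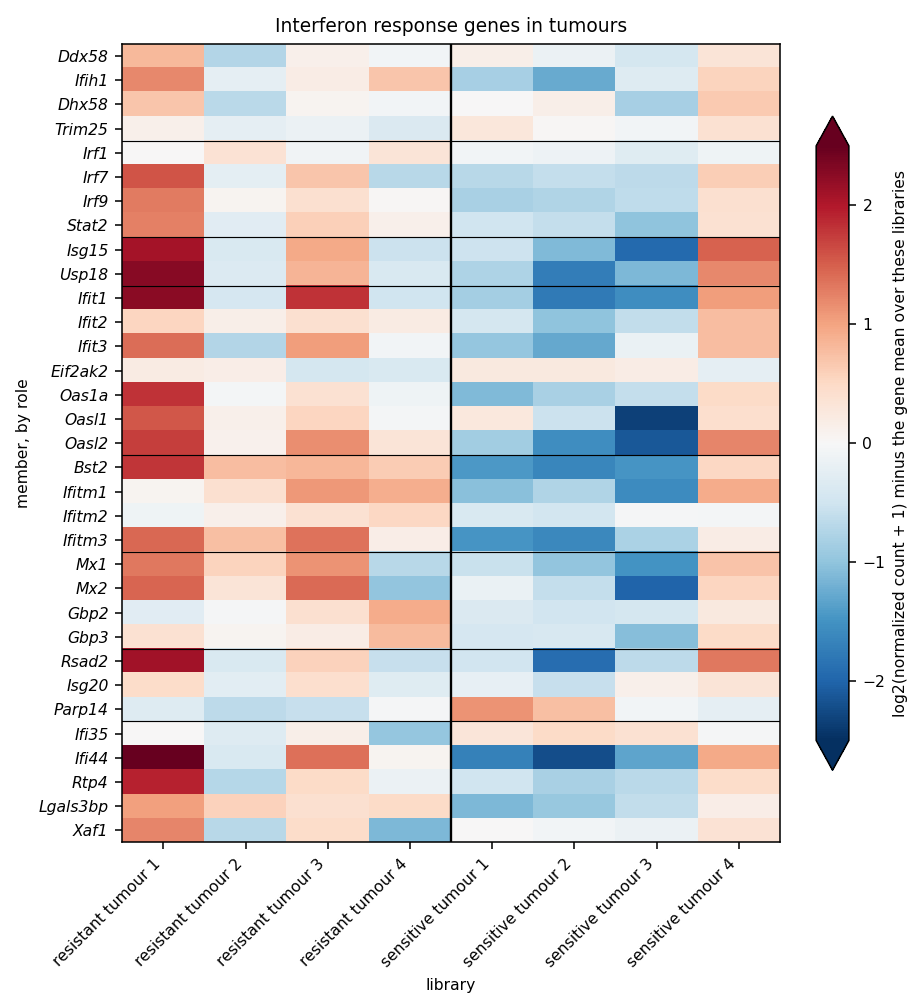
Level of each member in each tumour, as log2(normalized count + 1) minus that gene's mean over the 8 tumours (red higher, blue lower), with members in rows by role and resistant tumours left of sensitive ones. Resistant tumour 1 is the highest resistant library for 26 of 33 members and sensitive tumour 4 the highest sensitive library for 28 of 33.

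Among the RNA sensors, 1 of 4 passed in the tumours without sensitive tumour 4. Ifih1, the sensor MDA5 of long double-stranded RNA, had 507, 187, 248 and 357 normalized counts in resistant tumours, against 123, 90.4, 174 and 324 in sensitive tumours. All resistant tumours lay above the first 3 sensitive ones (log2 fold change 1.27 ± 0.36, limma adjusted p = 0.0233), and with all 8 tumours the value was 0.93 ± 0.44. Ddx58, the sensor RIG-I of RNA with 5′ phosphates, had a log2 fold change of 0.18 ± 0.33 without sensitive tumour 4, and Dhx58, the related regulator LGP2, one of 0.23 ± 0.37. Trim25, the ubiquitin ligase that activates RIG-I, had 1471 to 2059 normalized counts in resistant and 1798 to 2466 in sensitive tumours. These 3 genes did not pass, and their groups overlapped.

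Of the 4 transcription factors, Stat2 and Irf9, which act together in the response element complex, were higher without sensitive tumour 4. Stat2 had 1707, 591, 1087 and 779 normalized counts in resistant tumours, against 509, 473, 358 and 925 in sensitive tumours 1 to 4. The resistant group overlapped the sensitive one through sensitive tumour 4 alone, with a log2 fold change of 1.12 ± 0.33 without it (limma adjusted p = 0.0277). Irf9, the DNA-binding part of the complex, gave 1.19 ± 0.30 (adjusted p = 0.013). Irf7, which amplifies interferon production, had 322, 90.4, 174 and 66.3 normalized counts in resistant tumours, against 65.6, 70.6, 67.9 and 165 in sensitive tumours, and Irf1, which responds mainly to interferon gamma, had 258 to 351 against 224 to 262. Neither Irf7 nor Irf1 passed (log2 fold changes 0.98 ± 0.49 and 0.31 ± 0.18 without sensitive tumour 4).

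Of the effectors that act on viral RNA and protein synthesis, 4 of 7 were higher without sensitive tumour 4, with wide spread between resistant tumours. Ifit1, which binds viral RNA ends and whose promoter stretch is shown above, had 453, 70.4, 333 and 66.3 normalized counts in resistant tumours, against 51.8, 26.8, 31.5 and 197 in sensitive tumours. Resistant tumours 1 and 3 lay far above resistant tumours 2 and 4, so the fold change carried a wide error (2.18 ± 0.70 without sensitive tumour 4, limma adjusted p = 0.0372). Oasl2, of the oligoadenylate synthetase family that responds to double-stranded RNA, had 964, 316, 651 and 363 normalized counts in resistant tumours, against 159, 98.9, 66.2 and 679 in sensitive tumours (2.34 ± 0.43, adjusted p = 0.00368). Ifit2, of the IFIT family, rose by 1.003 ± 0.203 on the log2 scale and Oas1a, a synthetase that activates RNase L, by 1.35 ± 0.47, both without sensitive tumour 4. In this group of 7, Ifit3 (1.201 ± 0.546), Oasl1 (1.41 ± 0.65) and Eif2ak2 (-0.34 ± 0.19), the kinase PKR that halts translation, did not pass. Ifit3 and Oas1a have near-identical copies, Ifit3b and Oas1g, so their counts are uncertain.

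Of the 4 membrane proteins, 3 were higher without sensitive tumour 4. Ifitm3, which blocks the fusion of viruses with endosomes, had 11796, 7270.3, 11162 and 4872 normalized counts in resistant tumours, against 1552, 1416, 2492 and 4918 in sensitive tumours 1 to 4. Sensitive tumour 4 was level with the lowest resistant tumour, and the other sensitive tumours lay below both. Its log2 fold change was 2.23 ± 0.33 without sensitive tumour 4 (limma adjusted p = 0.00144) and 1.86 ± 0.43 with it (adjusted p = 0.128). Bst2 gave 2.51 ± 0.30 (adjusted p = 0.000576) and Lgals3bp, outside this group, 1.52 ± 0.19 (adjusted p = 0.000746) without sensitive tumour 4. Ifitm1, the family member of the cell surface, had 398, 501, 805 and 719 normalized counts in resistant tumours, against 183, 226, 128 and 726 in sensitive tumours (1.74 ± 0.29, adjusted p = 0.00242, without sensitive tumour 4). Ifitm2 had 3122 to 4849.6 in resistant and 2463 to 3302 in sensitive tumours and did not pass. The IFITM genes are related in sequence and their counts may share reads.

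The remaining members gave 5 passing genes without sensitive tumour 4, of which 1 fell. Ifi44, a gene of little known function that type I interferon induces strongly, had 404, 32.6, 113 and 45.3 normalized counts in resistant tumours, against 12.7, 8.48, 16.6 and 84.1 in sensitive tumours. Its log2 fold change of 2.81 ± 0.78 (limma adjusted p = 0.0209) was the highest of the members in that fit, with resistant tumour 1 far above the rest of its group. Gbp3, a guanylate-binding GTPase induced mainly by interferon gamma, rose by 0.98 ± 0.27, and Mx1, a GTPase that traps viral nucleocapsids, by 1.59 ± 0.51 with groups that overlapped. Usp18, the protease that removes ISG15 from proteins and dampens the receptor, rose by 1.80 ± 0.63 (adjusted p = 0.048). Parp14, an ADP-ribosyltransferase, fell, with 1109, 884, 927 and 1348 normalized counts in resistant tumours against 3019, 2341, 1323 and 1177 in sensitive tumours (-1.001 ± 0.279, adjusted p = 0.0213). Isg15, a ubiquitin-like protein joined to other proteins, had 471, 85.2, 215 and 76.0 normalized counts in resistant tumours, against 77.1, 50.9, 28.2 and 311 in sensitive tumours. Its groups overlapped with or without sensitive tumour 4 and it did not pass, nor did Mx2, Gbp2, Rsad2, Isg20, Ifi35, Rtp4 and Xaf1, whose log2 fold changes without that tumour ran from -0.67 for Ifi35 to 1.47 for Mx2.

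Spread within groups was wider for the members than for genes in general. The median SD between libraries, on the log2 scale, was 0.62 for the members and 0.33 for all genes in resistant tumours, and 0.65 and 0.41 in sensitive tumours. Resistant tumour 1 was the highest of its group for 26 of 33 members and for 27.2% of all genes. Several marker lists also differed between the resistant and the first 3 sensitive tumours. The summed levels of 11 neutrophil markers were 12799 to 17464 in resistant tumours, against 1830 to 2241 in the first 3 sensitive tumours and 33249 in the fourth, and all 11 were higher in resistant tumours without sensitive tumour 4. The 17 macrophage and dendritic cell markers summed to 11154, 33593, 13149.5 and 100215 in resistant tumours 1 to 4, against 20281 to 34456 in sensitive tumours, with 0 of 16 tested higher by limma in all 8 tumours and 1 without sensitive tumour 4. The sum was lowest in resistant tumour 1, where the members were highest. The neutrophil sum, at 12799, and the endothelial sum below, at 2892, were also lowest there within the resistant group. Without sensitive tumour 4, 20.6% of all genes were higher and 19.4% lower. In that fit 1 of 7 T and NK cell markers tested was higher and 0 lower. Of these 7, 2 had a log2 fold change above 0, and the median was -0.55. Of 10 fibroblast markers 2 were higher and 3 lower. Plasmacytoid dendritic cells make much interferon. Their markers summed to 12.2 to 40.5 in resistant tumours, against 64.6 to 84.0 in the first 3 sensitive tumours and 24.3 in the fourth. The 1 marker tested was lower without sensitive tumour 4 (log2 fold change -1.68). Endothelial markers summed to 2892 to 5387 in resistant tumours, against 2144 to 2309 in the first 3 sensitive tumours and 3363 in the fourth, and 6 of 10 were higher without sensitive tumour 4. Basal keratinocyte markers ran the other way, at 38866 to 97161 in resistant tumours, against 161122 to 232771 in the first 3 sensitive tumours and 90884 in the fourth, and 6 of 9 were lower without it. The part of these cells in the members' levels was not tested.

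**Figure D3:**
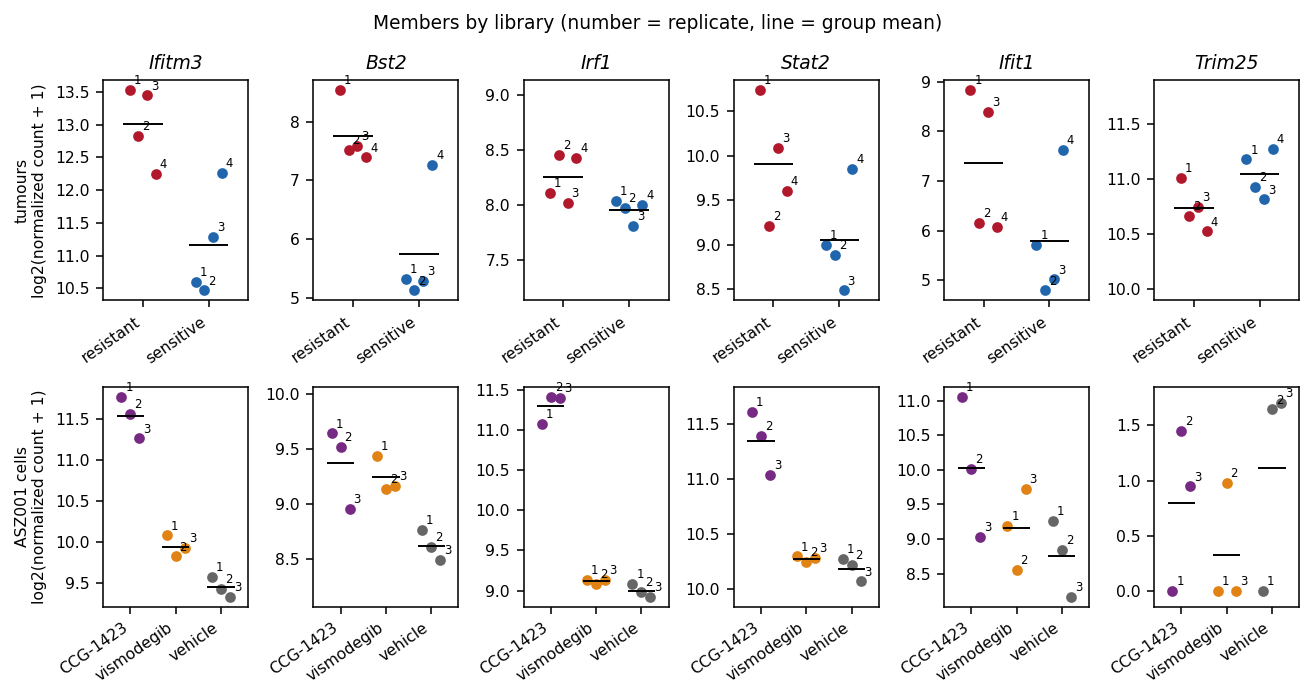
Level of 6 members in each library, as log2(normalized count + 1), for tumours (upper row) and ASZ001 cells (lower row), where numbers are replicates and lines are group means. Sensitive tumour 4 lies near the resistant tumours for Ifitm3, Bst2, Stat2 and Ifit1, while Irf1 in CCG-1423 libraries, at 2151 to 2733 normalized counts, parts furthest from vehicle, at 484 to 539.9, and Trim25 is near 0 in all cell libraries.

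In ASZ001 cells, the comparison of CCG-1423 with vehicle asks which genes the compound moves. Most members were higher with it, although nearly every gene in these cells changed. Of 31 members tested 21 rose and 3 fell, while 85.3% of all 12775 genes tested passed, 42.8% higher and 42.6% lower. The members' share of calls, 77.4%, was below that background, and their share in the higher direction, 67.7%, was above it. At 2-fold or more 15 members rose (48.4%), against 11.7% of all genes, and the median log2 fold change was 0.95 for the members and 0.0034 for all genes. Every CCG-1423 library lay above every vehicle library for 18 members, which 43.0% of all genes did, and below for 2, which 42.8% of all genes did.

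**Figure D4:**
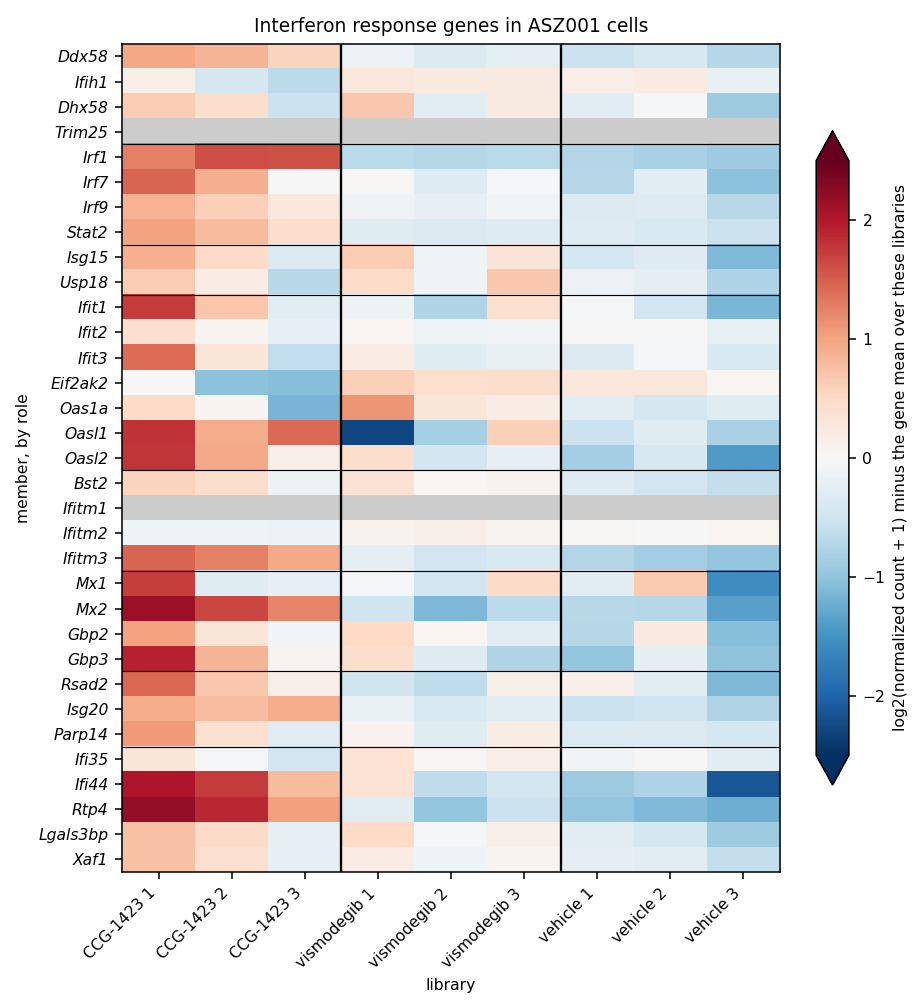
Level of each member in each ASZ001 library, as log2(normalized count + 1) minus that gene's mean over the 9 libraries (red higher, blue lower), with members in rows by role. Rows of Trim25 and Ifitm1 are grey because they had almost no reads. CCG-1423 library 1 is the highest of its group for 29 of 31 members and vehicle library 3 the lowest of its group for 29 of 31.

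All 4 transcription factors rose with CCG-1423. Irf1, whose gamma-activated core is shown above, had 2151, 2733 and 2703 normalized counts with CCG-1423, against 539.9, 507 and 484 with vehicle. It was the member of smallest p, its groups were far apart, and its log2 fold change was 2.30 ± 0.08 (limma adjusted p = 1.5e-13). Stat2 had 3118, 2677 and 2094 normalized counts with CCG-1423, against 1232, 1188 and 1071 with vehicle (1.16 ± 0.10, adjusted p = 1.8e-08), and Irf9 rose by 1.03 ± 0.12. Irf7 had 344, 236 and 127 normalized counts with CCG-1423, against 76.0, 103 and 61.1 with vehicle (1.46 ± 0.27). The lowest CCG-1423 library was close to the highest vehicle library for Irf7 and well above it for the other 3 factors.

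The RNA sensors moved in opposite directions. Ddx58 had 8305, 7629.8 and 6222 normalized counts with CCG-1423, against 2934, 3224 and 2604 with vehicle, a rise of 1.33 ± 0.09 on the log2 scale (limma adjusted p = 8.4e-10) with no overlap. Ifih1 had 416, 280.3 and 238 normalized counts with CCG-1423, against 423, 430.0 and 329 with vehicle. It passed as lower (-0.37 ± 0.15, adjusted p = 0.0338), but CCG-1423 library 1 lay within the vehicle range. The call was lost without CCG-1423 library 2 or 3 and without vehicle library 1 or 2. Dhx58 did not pass (0.58 ± 0.30).

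Trim25 had almost no reads in the cell table, and whether this lies in the line or in the annotation used for that table is not known. Its reads numbered 8 in all 9 cell libraries together, with 0 to 1.73 normalized counts with CCG-1423, 0 to 0.967 with vismodegib and 0 to 2.26 with vehicle. Where no read was counted, up to 3 may still be allowed for, equal to 2.45 to 3.40 normalized counts here, for counting error only. Its neighbours in the RefSeq gene order of GRCm38.p6, Scpep1 and Coil, averaged 3758 and 264 normalized counts with vehicle. Ifitm1 had 1 read, in vismodegib library 1, and was likewise not tested.

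The IFIT, PKR and oligoadenylate group split with CCG-1423, with 3 of 7 higher, 1 lower and 3 not passing. Oasl2 had 317, 178 and 101 normalized counts with CCG-1423, against 50.6, 69.2 and 34.0 with vehicle (1.84 ± 0.34, limma adjusted p = 0.00011). Oasl1, a related protein that restrains Irf7 in mice, had 53.6, 28.6 and 40.8 against 9.80, 11.7 and 7.92 (1.93 ± 0.52). Ifit1 had 2133, 1031 and 520.2 normalized counts with CCG-1423, against 613, 458 and 286 with vehicle. Its groups overlapped, since CCG-1423 library 3 lay below vehicle library 1 (1.28 ± 0.39, adjusted p = 0.00688). Eif2ak2 fell, with 1650.5, 801 and 779.8 normalized counts with CCG-1423 against 1988, 1976 and 1699 with vehicle (-0.90 ± 0.19, adjusted p = 0.000453). Ifit2 (0.16 ± 0.11), Ifit3 (0.62 ± 0.33) and Oas1a (0.12 ± 0.32) did not pass.

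The IFITM genes parted. Ifitm3 had 3489.8, 3023 and 2452 normalized counts with CCG-1423, against 759.6, 688 and 643 with vehicle, and rose by 2.09 ± 0.10 on the log2 scale (limma adjusted p = 1.4e-11). The related gene Ifitm2 fell slightly, with 2274, 2275 and 2236 against 2529, 2463 and 2533 (-0.15 ± 0.03, adjusted p = 0.000383). Neither gene's groups overlapped. Bst2 had 800.1, 736 and 497 normalized counts with CCG-1423, against 435, 391 and 359.9 with vehicle (0.75 ± 0.14).

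The members with the 3 largest rises with CCG-1423 were Rtp4, Ifi44 and Mx2. Rtp4, a chaperone of receptor transport that type I interferon induces, had 485, 389 and 215 normalized counts with CCG-1423, against 52.3, 47.9 and 44.1 with vehicle (2.82 ± 0.24, limma adjusted p = 1.6e-08). Ifi44 had 465, 384 and 197 against 60.4, 66.0 and 24.9 (2.79 ± 0.35), and Mx2 had 378, 276 and 201 against 52.3, 52.1 and 32.8 (2.60 ± 0.23). In these 3 genes every CCG-1423 library was at least 2-fold above the highest vehicle library. Mx1 did not pass, at 52.5, 12.1 and 12.98 normalized counts with CCG-1423 against 12.3, 24.5 and 4.53 with vehicle, and is known to be defective in C57BL/6 mice. Gbp3 rose by 1.68 ± 0.39 and Gbp2 by 0.93 ± 0.30, a call lost without vehicle library 3. All 3 enzymes rose, with Isg20, an exonuclease of RNA, at 148, 132 and 147 normalized counts against 53.1, 54.3 and 45.3 (1.47 ± 0.13). Rsad2, called viperin, which makes a chain-terminating nucleotide, rose by 1.17 ± 0.31 and Parp14 by 0.78 ± 0.23. Isg15 rose by 0.95 ± 0.26, Lgals3bp by 0.87 ± 0.20 and Xaf1, which favours cell death, by 0.67 ± 0.17, while Usp18 (0.43 ± 0.26) and Ifi35 (0.05 ± 0.14) did not pass.

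**Figure D5:**
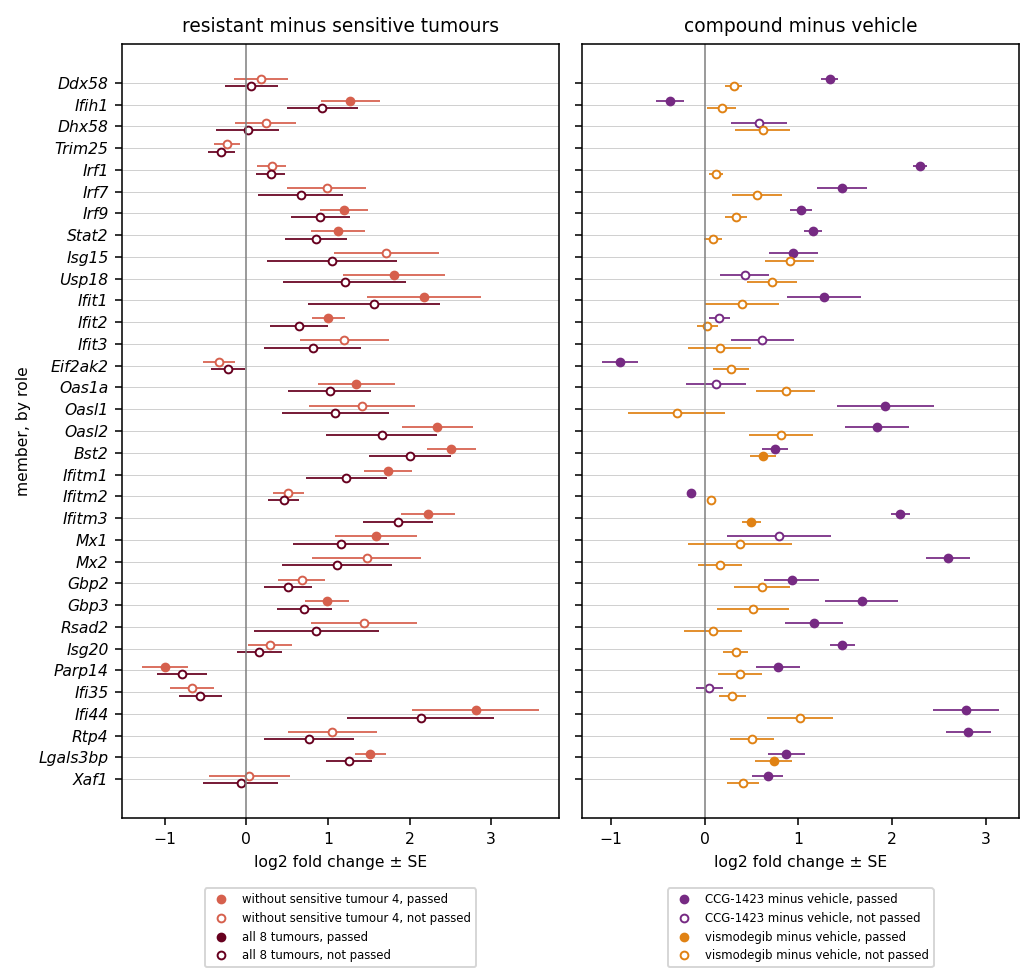
Log2 fold change of each member with its SE, for resistant minus sensitive tumours (left, with and without sensitive tumour 4) and for each compound minus vehicle in ASZ001 cells (right), with filled points for members that passed the limma test. Fold changes with CCG-1423 run from -0.90 for Eif2ak2 to 2.82 for Rtp4, and those with vismodegib stay between -0.29 and 1.02.

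Libraries of one treatment differed in the members far more than in genes in general. The median SD between libraries on the log2 scale was 0.54 for the members and 0.078 for all genes with CCG-1423, 0.26 and 0.054 with vismodegib, and 0.21 and 0.047 with vehicle. CCG-1423 library 1 was the highest of its group for 29 of 31 members, against 37.0% of all genes, and library 3 the lowest for 27 of 31, against 26.2%. Irf1 went the other way, with library 1 the lowest. With vismodegib library 1 was the highest for 22 members, against 32.3% of all genes, and library 2 the lowest for 25, against 28.4%. Vehicle library 3 was the lowest for 29 members, against 33.9% of all genes. Members within a library thus moved together, so their calls are not independent of each other. Macrophage and dendritic cell markers summed to 1040 to 1210 normalized counts with CCG-1423, 578 to 680 with vismodegib and 631 to 668 with vehicle. Of this list C1qa, C1qb, C1qc and H2-Aa were at 0 in all 9 libraries. Among the 6 tested, 3 rose with CCG-1423 (Cd68, Cd74 and Cd14) and 2 fell (H2-Ab1 and Csf1r). Together they make up 83.3%, near the 85.3% of all genes that passed. Cd68 alone averaged 856 normalized counts with CCG-1423 and 421 with vehicle. Basal keratinocyte markers summed to 320138 to 331796 with CCG-1423 and 1385150 to 1415450 with vehicle. Of these 9 markers 8 were lower and 1 higher, against 42.6% and 42.8% of all genes. The part of these differences in the members' levels was not tested.

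Vismodegib was compared with vehicle in the same fit, sharing the vehicle libraries with the comparison above. It went with small differences, nearly all in the higher direction. The log2 fold change was above 0 for 30 of 31 members and for 55.7% of all genes, with a median of 0.38 for the members and 0.01 for all genes. By limma 3 of 31 members passed, all higher, against 5.50% of all genes, of which 1.58% of all genes were higher and 3.92% lower. None was higher by at least 2-fold, as 0.00783% of all genes were. Every vismodegib library lay above every vehicle library for 17 members, which 16.0% of all genes did.

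All 3 members that rose with vismodegib rose with CCG-1423 too, as did 21 of all 31 members tested. Both comparisons used the same vehicle libraries, so this overlap is not independent support. Ifitm3 had 1079, 904 and 972 normalized counts with vismodegib, against 759.6, 688 and 643 with vehicle (0.50 ± 0.10, limma adjusted p = 0.0076). Bst2 had 693, 563 and 573 normalized counts with vismodegib, against 435, 391 and 359.9 with vehicle (0.62 ± 0.14, adjusted p = 0.0138). Lgals3bp had 716, 493 and 559 against 419.8, 371 and 273 (0.74 ± 0.20, adjusted p = 0.0441). No vismodegib library overlapped vehicle in these genes, but 0 members passed with a robust variance or without vismodegib library 1, and 12 passed with libraries scaled to their totals. That scaling also turned the split over all genes to 2923 higher and 306 lower, against 202 higher and 501 lower with the authors' factors. Among members that did not pass, Isg15 had 521, 311 and 420.0 normalized counts with vismodegib against 247, 267 and 155 with vehicle (0.91 ± 0.26, adjusted p = 0.0596). Ddx58 gave 0.31 ± 0.09 (adjusted p = 0.0554) and Oas1a 0.86 ± 0.32 (adjusted p = 0.144), both without overlap. Irf1, with 561, 541 and 562 against 539.9, 507 and 484, differed by 0.12 ± 0.08.

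CCG-1423 and vismodegib were also compared directly, at doses and times that are not given. With CCG-1423, 15 of 31 members were higher and 4 lower than with vismodegib, against 84.8% of all genes passing, 42.4% higher and 42.4% lower. At least 2-fold higher were 12 members (38.7%) and 12.2% of all genes. Every CCG-1423 library lay above every vismodegib library for 10 members and below for 3, against 42.6% and 42.5% of all genes. The median log2 fold change was 0.45 for the members and 0.01 for all genes. Irf1 had the smallest p, at 2151 to 2733 normalized counts with CCG-1423 and 541 to 562 with vismodegib (2.18 ± 0.08, limma adjusted p = 2.8e-13), and Mx2 (2.43 ± 0.23), Rtp4 (2.31 ± 0.24) and Oasl1 (2.22 ± 0.52) had the largest fold changes. Eif2ak2 (-1.18 ± 0.19), Ifih1 (-0.55 ± 0.15), Ifitm2 (-0.22 ± 0.03) and Oas1a (-0.74 ± 0.32) were lower with CCG-1423. Isg15, Bst2, Lgals3bp and Usp18 did not pass, with differences of 0.04 ± 0.26, 0.13 ± 0.14, 0.14 ± 0.20 and -0.29 ± 0.26.

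Across the tumour and cell comparisons, 9 members were higher both in resistant tumours without sensitive tumour 4 and with CCG-1423. They were Bst2, Gbp3, Ifi44, Ifit1, Ifitm3, Irf9, Lgals3bp, Oasl2 and Stat2. They make up 9 of the 15 members higher in the tumours and 9 of the 21 higher with CCG-1423. Among the 31 members tested in both, 14 and 21 were higher, and these counts alone would give 9.48 shared members, so the number shared is no more than the counts give. Some members parted the other way. Ifih1 was higher in those resistant tumours and lower with CCG-1423, and Parp14 was lower in the tumours and higher with CCG-1423. Irf1 and Mx2 rose with CCG-1423, whereas their tumour differences did not pass (0.31 ± 0.18 and 1.47 ± 0.67 without sensitive tumour 4).

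Interferon ligands themselves were scarcely seen. Of 19 measured ligand genes 14 had any read in a tumour, with at most 22 reads in 1 library, for Ifnk, the interferon kappa of keratinocytes. In ASZ001 cells 6 had any read, with at most 5. Those 5 reads were of Ifnb1, interferon beta, which had 5, 3 and 4 reads in the CCG-1423 libraries and 0 in every vismodegib and vehicle library. Counts this low were not tested and the difference in reads has no p-value.

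Of 5 receptor chains measured, 4 rose with CCG-1423, in a comparison where 42.8% of all genes did. Ifngr2, a chain of the interferon gamma receptor, averaged 3460 ± 127 normalized counts with CCG-1423 and 1682 ± 15.8 with vehicle (SD, n = 3 each; log2 fold change 1.04 ± 0.04), and also rose with vismodegib, by 0.18 ± 0.04. Ifngr1 (0.49 ± 0.06), Il10rb (0.38 ± 0.07), shared with the lambda interferon receptor, and Ifnar2 (0.20 ± 0.06), of the type I receptor, rose with CCG-1423 and Ifnar1 (-0.03 ± 0.04) did not pass. In tumours without sensitive tumour 4, Il10rb (1.10 ± 0.20), Ifnar2 (1.19 ± 0.23) and Ifngr2 (0.63 ± 0.14) were higher in resistant tumours. These are 3 of 5, against 20.6% of all genes. With all 8 tumours 0 of 5 passed by limma and 3 had an unadjusted p below 0.05, as did 3789 of all 15076 genes tested.

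Of the 12 signalling genes, 7 rose and 3 fell with CCG-1423, a share of 83.3% near the 85.3% of all genes that passed. The kinase Jak2 (1.52 ± 0.04) and the feedback inhibitor Socs3 (2.07 ± 0.07) were among those that rose, as were Irf2 (1.17 ± 0.05), which competes with Irf1, and Irf2bp2 (0.71 ± 0.04), a corepressor of Irf2. With vismodegib 1 of the 12 passed, Irf2bp2, which fell by 0.49 on the log2 scale. In tumours without sensitive tumour 4, Socs3 (1.27 ± 0.19) and Jak2 (0.67 ± 0.19) were higher and Jak1 (-0.62 ± 0.19) and Tyk2 (-0.47 ± 0.16) lower in resistant tumours, 4 of 12 against 40.0% of all genes. With all 8 tumours 0 of 12 passed by limma and 2 had an unadjusted p below 0.05, as did 3789 of all 15076 genes tested.

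Genes of nucleic acid sensing moved both ways, as genes in general did. With CCG-1423, 4 of 12 tested rose (33.3%, against 42.8% of all genes) and 5 fell (41.7%, against 42.6%). Mb21d1, the DNA sensor cGAS, rose by 1.34 ± 0.12 and Myd88, a toll-like receptor adaptor, by 0.77 ± 0.07. Ticam1, the adaptor TRIF, fell by 1.49 and Mavs, the adaptor through which RIG-I and MDA5 signal, by 0.50 on the log2 scale, and Mavs rose by 0.15 ± 0.04 with vismodegib. Tmem173, the adaptor STING through which cGAS signals, had at most 3 reads in any ASZ001 library. In tumours it had 445.8 to 678 normalized counts in resistant tumours, against 145 to 215 in the first 3 sensitive tumours and 516 in the fourth (1.63 ± 0.21 without sensitive tumour 4, limma adjusted p = 0.00084). Zbp1, a sensor of Z-form nucleic acid, rose by 2.55 ± 0.41 and Tbk1, the kinase that activates Irf3, by 0.57 ± 0.18, while Irf3 fell by 0.59 on the log2 scale in that comparison. These are 4 of 16, against 40.0% of all genes. With all 8 tumours 0 of 16 passed by limma and 2 had an unadjusted p below 0.05, as did 3789 of all 15076 genes tested.

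A wider list of 82 measured interferon-induced genes outside the members leaned to the higher direction. With CCG-1423, 33 of 56 tested rose (58.9%, against 42.8% of all genes) and 7 fell (12.5%, against 42.6%), with a median log2 fold change of 0.35. Cd274, the checkpoint ligand PD-L1, averaged 287 ± 14.5 normalized counts with CCG-1423 and 49.4 ± 3.62 with vehicle (SD, n = 3 each; 2.52 ± 0.12). Slfn4 (2.07 ± 0.10) and Slfn3 (1.88 ± 0.10), of the schlafen family, and Tap1 (1.87 ± 0.10), a transporter that loads antigen peptides, also rose. With vismodegib 0 of 56 passed by limma and 20 had an unadjusted p below 0.05, as did 2357 of all 12775 genes tested. The log2 fold change was above 0 for 53 of 56 and for 55.7% of all genes, with a median of 0.22 for the list. In tumours without sensitive tumour 4, 26 of 78 were higher in resistant tumours (33.3%, against 20.6% of all genes). In the same fit 6 were lower (7.69%, against 19.4%), so the calls together came to 41.0% against 40.0% of all genes. The log2 fold change was above 0 for 57 of 78, with a median of 0.55. Aim2, a DNA sensor of the inflammasome, averaged 676 ± 162 (n = 4) in resistant and 81.0 ± 24.3 (n = 3) in sensitive tumours (SD; 3.06 ± 0.26), and Slfn9 rose by 3.11 ± 0.30. Tap1 (-1.34 ± 0.18) and Tor3a (-1.48 ± 0.16) were lower there. With all 8 tumours 0 of 78 passed by limma and 22 had an unadjusted p below 0.05, as did 3789 of all 15076 genes tested.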

How the data were processed

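RNA was measured by sequencing in 17 libraries. The 8 exome samples were not analysed here. Both deposited tables hold signal values that are normalized read counts, which the authors made by dividing whole reads by 1 size factor per library, separately in each table. Whole reads came back for 100% of values within 0.01 read. The submitters' processing notes list TopHat, DESeq and mm9 without saying what each did. The sources used here do not give the gene counter, the annotation or the strandedness, so reads of overlapping antisense genes could not be told apart.

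Each value was taken as log2(normalized count + 1) and tested with limma 3.58.1 (R 4.3.3), with a variance trend. Genes needed at least 10 normalized counts in as many libraries as the smallest group. All tests were 2-sided, and Benjamini-Hochberg adjustment ran over all genes tested, with a threshold of 0.05. The 8 tumours were fitted together, and so were the 9 cell libraries, which share 1 estimate of the spread. Of the 33 members 33 passed the filter in tumours and 31 in cells. Fold changes of low genes are understated by the pseudocount of 1. edgeR 4.0.16 and DESeq2 1.42.0 ran on the whole reads, beside other pseudocounts, filters, scalings, a robust variance, a replicate term and leaving out each library. The steps were tested on simulated data. Values in every library are given for members of smallest p in a comparison and for those needed to show a group's pattern, and up to 4 genes of each pathway list were named by smallest p. The members, lists and rule were chosen with earlier results of these data known.

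Same-numbered tumours had correlations of deviations from -0.146 to 0.122 and same-numbered cell libraries from -0.043 to 0.037, so replicate numbers were not taken as pairs. Promoter sequences and gene order come from RefSeq, build GRCm38.p6.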

Additional observations from a re-analysis of the deposited data

Results flagged for a closer look

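Single tumours stood far from the others of their group in 12 of 66 groups of 4 tumour values, where the gap to the nearest tumour as a share of the group's range was above Dixon's critical value. Chance gives about 1 in 20 for independent groups of normally distributed values. These groups are not independent, since all come from the same tumours. The share over all genes was not counted, so 12 of 66 cannot be set against chance. In 10 of the 12 flagged groups the tumour was sensitive tumour 4, the highest of its group each time. It had 153 normalized counts of Bst2, 197 of Ifit1, 726 of Ifitm1, 84.1 of Ifi44, 165 of Irf7, 515 of Irf9, 679 of Oasl2, 177 of Usp18, 119 of Rtp4 and 250.4 of Gbp2. In the other two the tumour was resistant tumour 1, with 369.9 normalized counts of Bst2 and 180.1 of Oas1a. Sensitive tumour 4 also had 33249 summed normalized counts of neutrophil markers, against 1830 to 2241 in sensitive tumours 1 to 3, and no Y-linked reads. The part of these differences in the values above was not tested.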

How the results depend on the processing

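In the tumours DESeq2 called 3 members, against 1638 of all 15076 genes tested. Leaving out each library gave 0 to 16 members, with 16 only without sensitive tumour 4, where 40.0% of all genes passed. All other alternatives gave 0 members. With CCG-1423 against vehicle the alternatives called 20 to 26 members and leaving out each library 23 to 29. Against vismodegib CCG-1423 gave 15 to 20 and 17 to 24. Vismodegib against vehicle was the least steady, with 12 members when scaled to library totals, 0 with a robust variance, 6 with the replicate block, 2 or 3 otherwise, and 0 to 12 when each library was left out. It gave 0 without vismodegib library 1, 1 without vismodegib library 3 or vehicle library 3, 12 without CCG-1423 library 1 and 9 without CCG-1423 library 3. Leaving out a CCG-1423 library does not touch the vismodegib or vehicle values, and the members' median log2 fold change stayed at 0.38. It does change the shared estimate of the spread and the genes tested. The replicate block gave 0, 25, 6 and 20 members in the tumour, CCG-1423, vismodegib and direct comparisons.

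Log2 fold changes that changed sign all belonged to members that did not pass. In tumours these were Ddx58 (-0.0475) and Dhx58 (-0.092) scaled to totals, Dhx58 (-0.0185 with edgeR, -0.0197 with DESeq2) and Xaf1 (0.18 with edgeR, 0.19 with DESeq2). With vismodegib it was Oasl1 (0.15 with edgeR and with DESeq2), and between the compounds Isg15 (-0.0074, totals) and Dhx58 (0.16, quantile). With libraries left out, tumour values ran from -0.0044 to 0.29 for Isg20, -0.20 to 0.32 for Ddx58, -0.26 to 0.24 for Dhx58 and -0.49 to 0.29 for Xaf1. CCG-1423 values ran from -0.0045 to 0.31 for Ifit2, -0.14 to 0.25 for Ifi35 and -0.22 to 0.60 for Oas1a. Vismodegib values ran from -0.031 to 0.064 for Ifit2, -1.01 to 0.42 for Oasl1, -0.26 to 0.37 for Rsad2, -0.20 to 0.90 for Mx1 and -0.055 to 0.35 for Mx2. Between the compounds they ran from -0.0050 to 0.34 for Bst2, -0.24 to 0.39 for Isg15, -0.034 to 0.28 for Ifit2, -0.061 to 0.94 for Ifit3, -0.59 to 0.078 for Usp18, -0.24 to 0.78 for Mx1, -0.27 to 0.32 for Dhx58 and -0.063 to 0.41 for Lgals3bp. The causes were not tested. Calls between the compounds of Ifit1, Oas1a, Oasl2 and Gbp3 were lost without 1 or more libraries. Sensitive tumours 1 to 3 were the shallowest libraries, so low members such as Oasl1 and Mx1 rest there on few reads.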
